A study of Mus musculus with 4 samples.

Results

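The loci described here are 286 of the 24411 gene entries counted in BV2 cells at which reads from the strand opposite to the gene outnumbered reads from the gene's own strand. An entry was taken when its opposite-strand reads summed over the 4 libraries came to at least 50 and exceeded the sum on its own strand. The members were thus chosen by those 2 measured sums, which are described below without a test. The sums cover both treatment groups, so a group with many opposite-strand reads could bring in a member by itself. With the rule applied to each group alone and a minimum of 25 reads, 203 members met it in both groups, 61 only in untreated and 22 only in LPS cells. For single members of the last 2 sets the difference between the groups is given as reads or as a log2 fold change, with no test. Counts of members that passed a test include these sets.

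Many mammalian genes overlap a gene on the other DNA strand, with 3' ends that run into each other, with start regions that overlap, or with a small gene inside a larger one. A library that keeps the strand of each RNA can tell such transcripts apart, and an entry then collects reads on the opposite strand wherever a neighbouring or antisense transcript crosses its exons. Some antisense RNAs act on the gene they cross, while many are transcripts of ordinary genes that happen to share sequence with a neighbour.

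BV2 is an immortalised mouse microglial line, and all 4 libraries came from BV2 cells whose genotype is given as Pu.1 KO, made by CRISPR-Cas9. PU.1 is the transcription factor encoded by Spi1. Of the 4 libraries, 2 were untreated and 2 were exposed to lipopolysaccharide (LPS), a bacterial cell wall component sensed by TLR4, at 10 ng/ml. The exposure is 2 h in the source name and 4 h in the title, and this was not settled. No wild-type cells are used here, so nothing below measures the effect of the genotype, and the labels state neither a single clone nor separate cultures. If the libraries of a group came from a single culture, the p-values measure technical spread only.

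Ribosomal RNA was depleted and the libraries kept the strand of the RNA. The gene-strand counts totalled between 3256197 and 4502105 per library and the opposite-strand counts between 34162 and 52705, or 1.04% to 1.26% of all stranded gene counts. The 286 entries held 52.9% and 53.1% of the opposite-strand counts in the untreated libraries and 49.4% and 42.2% in the LPS libraries. Spi1 was still counted in every library, with 844 and 743 untreated and 745 and 958 LPS reads, which do not show whether the edit is present. The 6 microglia and macrophage markers were all detected and summed to 9460 and 8316 reads in the untreated and to 3975 and 4449 in the LPS libraries, and their part in the results was not tested. Laptm5, Cd68 and Csf1r had fewer reads after LPS (3868 and 3038 against 816 and 832 for Laptm5), while Itgam (116 and 132 against 345 and 380), Cx3cr1 and Aif1 had more. These reads are not scaled for depth. Gene-strand totals were 4502105 and 4115011 untreated and 3256197 and 3749159 after LPS. Their TMM scaling factors were 1.16 and 1.10 untreated and 0.888 and 0.880 after LPS. Fewer marker reads after LPS therefore need not mean a lower level. Neuronal and epithelial markers were at 0, fibroblast, astrocyte, oligodendrocyte and lymphocyte markers summed to at most 4 reads in a library, and endothelial markers to between 105 and 144. In bulk libraries such as these, fewer cells of a type and less RNA per cell cannot be told apart. Opposite-strand counts of the 2 LPS libraries differed by more than counting noise (chi-square per degree of freedom of 2.5), and for the untreated pair the value was 1.21.

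On their own strand most of the members were close to silent. No gene-strand read was counted at 77 members in any library, which allows a sum of up to 3 reads by counting error alone, and 170 members had fewer than 10. Opposite-strand reads made up a median of 97.5% of an entry's stranded reads. The median member had an opposite-strand sum of 139 reads, 41 members had 500 or more and 111 had fewer than 100, and 284 members had a read in every library. At the read minimum, Prg4 and 1700007J10Rik stood just inside with 50 opposite-strand reads each, and Gnal and 0610040F04Rik just outside with 49 each. At the strand boundary, Inpp5f (108 opposite-strand and 103 gene-strand reads) and Vps26b (923 and 901) stood just inside, and Neurl2 (220 and 226) and Brip1os (318 and 335) just outside.

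By their annotation the members were 176 protein-coding genes, 57 antisense genes, 21 processed transcripts, 7 lincRNAs, 6 lncRNAs, 5 miRNA precursors and 8 of other kinds, with 6 entries that matched no annotated gene. Of the 280 matched members, 275 (98.2%) had a gene on the other strand that overlapped them or lay within 5 kb, against 58.6% of all 24163 matched entries. Where several overlapped, the gene with the most reads on its own strand was taken. Where none overlapped, the nearest gene was taken, whatever its reads. The gene taken is called the partner gene below. Exons of the member and the partner overlapped at 250 members (89.3%), against 22.4% of all matched entries. The comparison is a description, because the members were chosen for their opposite-strand reads. Entries that had at least 50 opposite-strand reads but more on their own strand were much closer, with overlapping exons at 78.8% of 288.

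Among members with overlapping exons, 167 of 250 (66.8%) faced the partner tail to tail, so that the 2 transcripts ended within each other. This layout made up 71.8% of exon overlaps at the other entries with at least 50 opposite-strand reads and 38.4% over all entries. It was thus not particular to the members. Head-to-head pairs, in which the start regions overlap, made up 16.4% of the members' overlaps. The share was 21.1% for those other entries and 35.5% over all entries. The member lay inside the partner at 12.8%, against 0.881% for the other entries with at least 50 opposite-strand reads and 7.03% over all entries. The median overlap of exon sequence was 409.5 bases for members, 462 bases for those other entries and 234 bases over all entries.

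**Figure D1:**
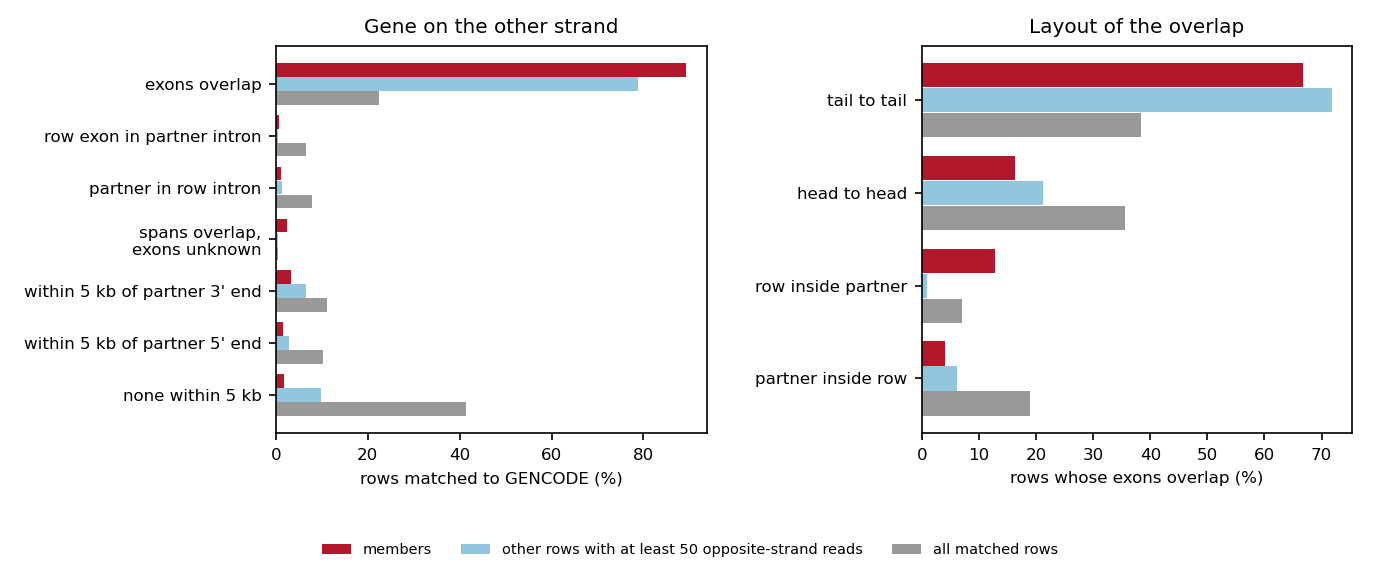
Share of gene entries (x axis, %) by their relation to a gene on the other strand (left) and, for those whose exons overlap, by layout (right). Red bars are members, light blue bars other entries with at least 50 opposite-strand reads, grey bars all matched entries. Overlapping exons were found at 89.3% of members and 22.4% of all matched entries. Tail-to-tail layouts made up 66.8% of the members' overlaps and 71.8% of those of the light blue entries.

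The partner genes were mostly protein coding (260 of 275). Their median was 60.3 CPM (gene-strand reads relative to the scaled library size), against 31.3 CPM for all tested genes. The choice could favour abundant partners, because members needed opposite-strand reads and the overlapping gene with the most reads was taken. Nothing is read from this difference. A member's opposite-strand sum came to a median of 17.9% of its partner's gene-strand sum, with quartiles of 9.28% and 31.4%. Tail-to-tail members reached a median of 20.1%, head-to-head members 11.5% and members inside their partner 15.5%. In 4 of 266 pairs the member had more opposite-strand reads than the partner had on its own strand. They were Pdss1 (2393 reads, 108% of Abi1), and Ccdc167, Elmo3 and Fut11, whose partners Gm28043, Mir328 and 6230400D17Rik were counted at most 13 times in any library. Partners were shared by 8 members, 4 pairs in all, so their values are not independent.

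When strand is ignored, a read that overlaps 2 genes is assigned to neither. The files also hold such an unstranded count. Over all members it summed to 24139 reads, against 89018 on the opposite strand and 14956 on the gene's strand. At 128 members it was under 0.1 of the opposite-strand sum, and at 77 it came to 0.5 of it or more. Foxp3, the transcription factor of regulatory T cells, shows the first case. It had 103, 108, 76 and 67 opposite-strand reads in untreated replicates 1 and 2 and LPS replicates 1 and 2, none on its own strand and 2 unstranded reads in all, and its last exon overlaps exons of Ccdc22 by 590 bases. Gpld1, a phospholipase that cuts GPI anchors, shows the second. It had 1 read on its own strand in all libraries together and 428 on the opposite strand, yet an unstranded count of 429. The unstranded count thus lists these reads under the name Gpld1, so they were not counted as overlapping a second gene. In the GENCODE annotation used here for neighbours, its exons overlap those of Mrs2, a mitochondrial magnesium channel gene, by 2466 bases. The annotation used for counting was not found, so the 2 may differ at this locus.

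The other members without any gene-strand read and with the most opposite-strand reads were LOC105246506 with 698, Doc2a with 571, 4930506C21Rik with 475, Fam166a with 361 and E130218I03Rik with 312. These and the examples of the unstranded count were chosen after their values were seen. Doc2a encodes a calcium sensor of synaptic vesicles, and its exons overlap those of Ino80e, a chromatin remodelling subunit, by 1103 bases. LOC105246506 matched no annotated gene, so no partner is given.

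Of the 8 members with the most opposite-strand reads, 7 are described: AV051173, Tmem55b, Sla2, Pdss1, Snx22, Lppr3 and Srr. AV051173, a noncoding RNA gene whose span overlaps the peroxide-reducing enzyme gene Prdx1, had 1007 and 763 opposite-strand reads untreated and 1322 and 1913 after LPS. Both LPS libraries stood above both untreated ones. Its opposite-strand log2 fold change was 1.52 ± 0.12 (SE, edgeR adjusted p = 5.37e-06), and Prdx1 changed by 1.09 ± 0.08 on its own strand.

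Tmem55b, a lysosomal phosphatase gene that ends in the DNA repair gene Apex1, went from 1372 and 1238 reads to 556 and 661 and fell by 0.45 ± 0.09 on the log2 scale (edgeR adjusted p = 0.00235). Lppr3, a gene of the phospholipid phosphatase related family whose 3' exons meet those of the splicing regulator Ptbp1, went from 734 and 682 to 228 and 239 reads and fell by 0.94 ± 0.10 (edgeR adjusted p = 7.92e-05). The noncoding entry E130317F20Rik overlaps the other end of Ptbp1, head to head, and its opposite-strand reads went from 396 and 366 to 128 and 174 and fell by 0.68 ± 0.12 (edgeR adjusted p = 0.00139). Ptbp1 itself fell by 0.89 ± 0.08 on its own strand. The entries at both ends of Ptbp1 had fewer opposite-strand reads after LPS, and where those reads came from was not tested. E130317F20Rik was named after its values were seen.

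Sla2, an adaptor protein gene that ends in Rab5if, rose by 0.30 ± 0.09 (edgeR adjusted p = 0.0208), but with scaling by library size alone its log2 fold change turned to -0.0529. Pdss1, Snx22 and Srr did not pass the test, with log2 fold changes of 0.31, -0.02 and 0.20, although Pdss1 passed it without untreated replicate 2 (0.58, adjusted p = 0.00652) and without LPS replicate 2 (0.52, adjusted p = 0.000879). Without untreated replicate 1 the calls of Tmem55b and Sla2 were lost (adjusted p = 0.0528 and 0.245). That of Sla2 was also lost without untreated replicate 2 (0.202) and without LPS replicate 2 (0.143).

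**Figure D2:**
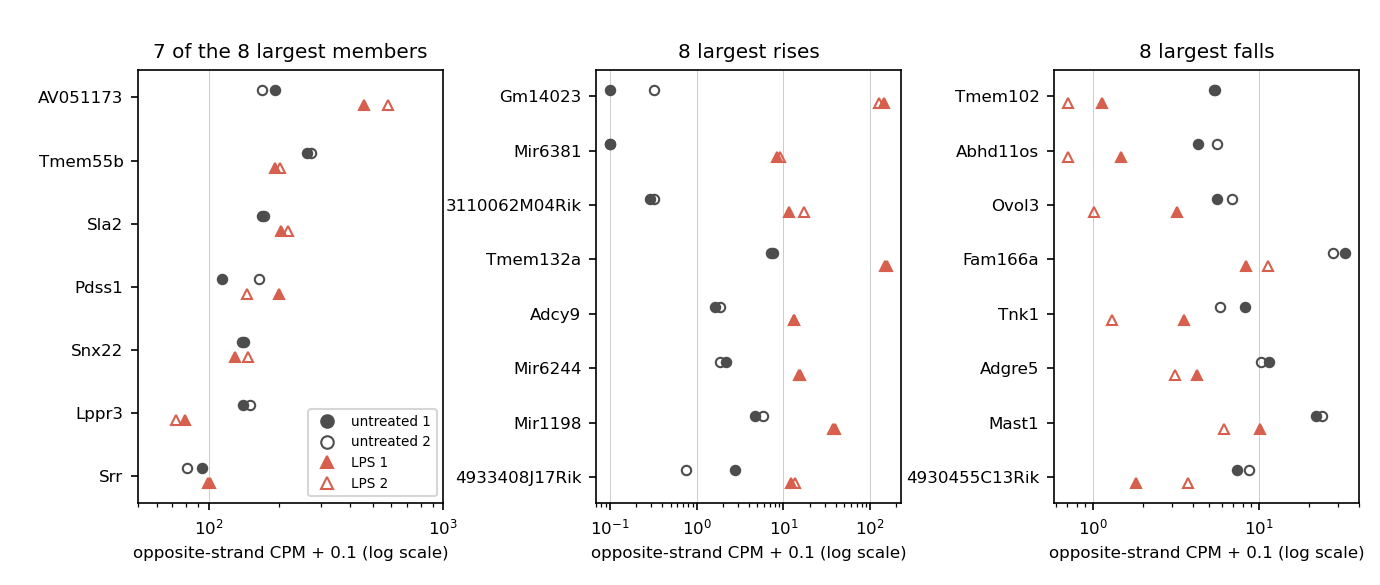
Opposite-strand reads in CPM plus 0.1 (x axis, log scale) for 7 of the 8 members with the most reads and the 8 members with the largest differences in each direction. Each symbol is 1 library, circles untreated and triangles LPS, filled for replicate 1 and open for replicate 2. Circles and triangles do not overlap in the middle and right panels, which the choice of these members required.

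Across the members, 38 of 285 tested (13.3%) had more opposite-strand reads after LPS and 43 (15.1%) had fewer, at an edgeR adjusted p below 0.05. Of all 718 entries tested on the opposite strand, members included, 21.7% were higher and 11.8% lower. Nothing is read from the members' counts against that background, because the rule used these reads. Of the 203 members that met the rule in both groups, 23 (11.3%) were higher and 28 (13.8%) lower, a subset taken after the data were seen. Of the 21 tested that met it only in LPS cells, 15 were higher and none lower. Of the 61 that met it only in untreated cells, 15 were lower and none higher. The choice of these 2 sets favoured those directions, so nothing is read from their calls. The 433 other entries tested had 27.3% higher and 9.7% lower. The median log2 fold change was -0.06 over the members and 0.10 over all entries tested. Groups did not overlap at 84 of the 286 members in the higher and 104 in the lower direction. Over the 718 entries tested these were 278 (38.7%) and 213 (29.7%). Pde6b was the member that the filter on low counts left out.

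The balance of the 2 directions depended on the scaling and on single libraries. With library size alone 26 members were higher and 93 lower, so that rises made up 21.8% of the calls in place of 46.9%, and the median over all entries moved to -0.28. Without untreated replicate 1 the counts were 24 higher and 10 lower, and without untreated replicate 2 they were 31 and 20. DESeq2 called 25 and 11.

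Of 285 members tested, 26 were called higher and 19 lower by 2-fold or more, against 19.4% and 7.1% of all 718 entries tested. Among 175 protein-coding members tested, 18 were higher and 29 lower, with a median log2 fold change of -0.17. Among 104 noncoding or pseudogene members, 20 were higher and 13 lower, with a median of 0.16. Tail-to-tail members whose partner was also tested (163) had 15 higher and 29 lower, head-to-head members (39) had 8 and 3, and members inside their partner (32) had 5 and 3. These counts include members that met the rule in 1 group only, and whether the classes differ was not tested. Shares over all entries of each class were not computed, so nothing is read from the class counts.

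The 3 largest differences in the higher direction lay opposite Il1a, Gbp2 and Tmem140. Like Tmem132a below, these members met the rule in LPS cells only, so their values are a description. Gm14023, a noncoding gene that ends in Il1a, which encodes the cytokine interleukin-1 alpha, had 0 and 1 opposite-strand reads untreated and 412 in each LPS library. No ratio of the groups is given, because the rule used these reads. On its own strand Gm14023 had at most 2 reads in any library. Il1a went from 0 and 1 to 1118 and 1319 reads.

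Mir6381 is a miRNA precursor inside Gbp2, an interferon-induced GTPase gene. It had no opposite-strand read in the untreated libraries and 24 and 30 in the LPS libraries. Gbp2 had 0 and 2 reads untreated and 284 and 337 after LPS, in a gene family whose similar copies make counts uncertain. 3110062M04Rik is a protein-coding entry whose last exon overlaps 2168 exon bases of the transmembrane protein gene Tmem140. It went from 1 opposite-strand read in each untreated library to 33 and 57 after LPS. Tmem140 had 1 and 1 reads untreated and 38 and 59 after LPS, close to the opposite-strand counts of its neighbour. For Mir6381 and 3110062M04Rik too no ratio is given.

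Tmem132a, a transmembrane protein gene, ends in Slc15a3, a lysosomal peptide and histidine transporter gene, with 1541 bases of shared exon. Its opposite-strand reads went from 39 and 32 to 456 and 493, a log2 fold change of 4.40. Slc15a3 changed by 3.89 ± 0.10. The opposite-strand signal of Tmem132a thus came to 20.2% of the Slc15a3 reads over the 4 libraries.

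**Figure D3:**
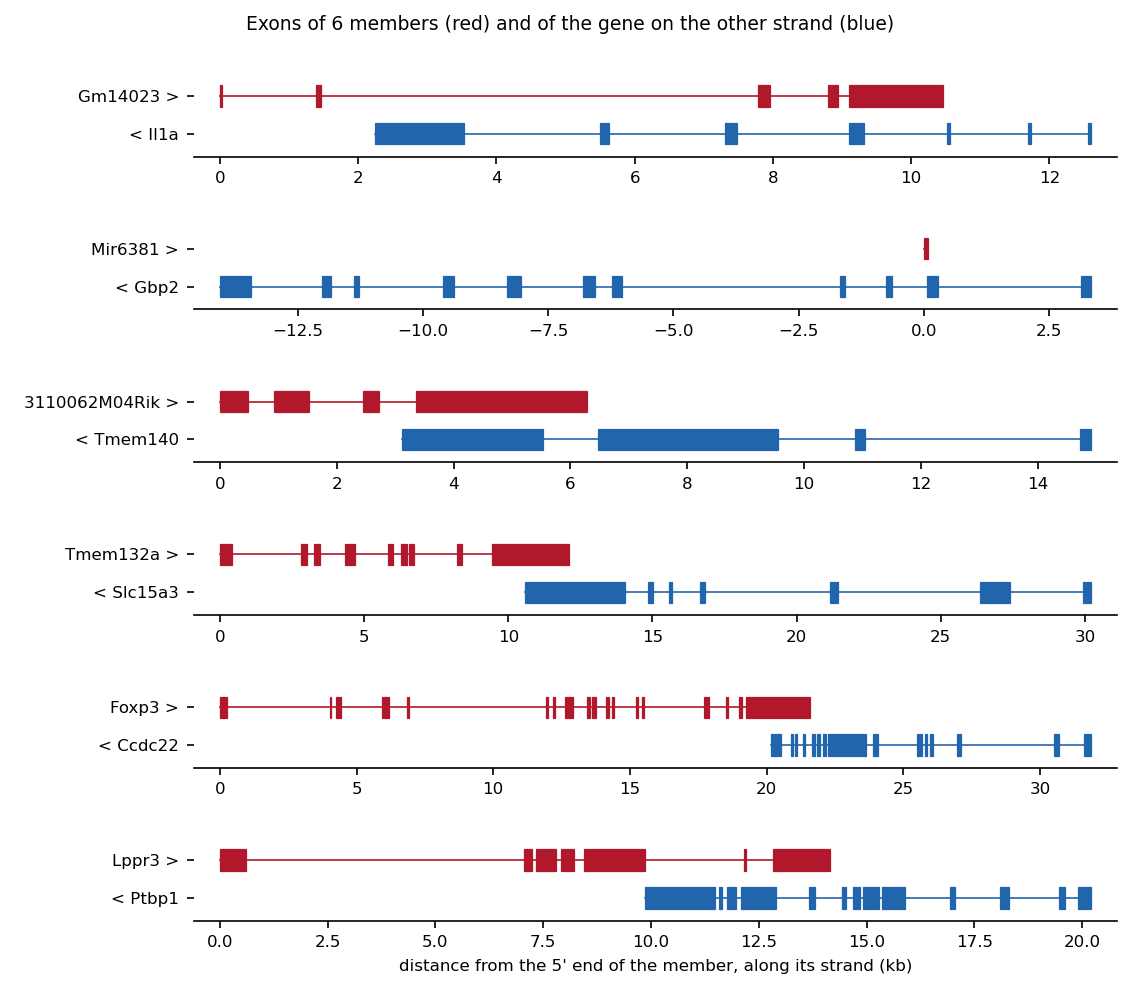
Exons (boxes) of 6 members, red, and of their partner genes on the other strand, blue, in GENCODE models. The x axis gives the distance in kb from the 5' end of the member along its strand, so the member runs to the right and the partner to the left. Boxes of both colours share positions at each locus, over 222 bases for Gm14023 and Il1a and 2168 for 3110062M04Rik and Tmem140.

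The start regions of the partner genes Il1a, Gbp2 and Tmem140 are shown because the members opposite them had at most 1 opposite-strand read in an untreated library. Each sequence holds 250 bases before and 50 after the start that RefSeq gives in GRCm38.p6, read along the gene. Capitals mark matches to TGANTCA (the AP-1 site) or to GAAA, any 2 bases, GAAA (the core of the interferon response element), searched on both strands.
Il1a, chr2:129309923-129310222, minus strand: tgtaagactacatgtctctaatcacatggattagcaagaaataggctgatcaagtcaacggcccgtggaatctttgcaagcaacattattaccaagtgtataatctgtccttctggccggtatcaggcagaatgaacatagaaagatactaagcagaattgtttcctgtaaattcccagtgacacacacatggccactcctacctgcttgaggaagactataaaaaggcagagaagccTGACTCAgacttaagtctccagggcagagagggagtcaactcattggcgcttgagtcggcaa
Gbp2, chr3:142620413-142620712, plus strand: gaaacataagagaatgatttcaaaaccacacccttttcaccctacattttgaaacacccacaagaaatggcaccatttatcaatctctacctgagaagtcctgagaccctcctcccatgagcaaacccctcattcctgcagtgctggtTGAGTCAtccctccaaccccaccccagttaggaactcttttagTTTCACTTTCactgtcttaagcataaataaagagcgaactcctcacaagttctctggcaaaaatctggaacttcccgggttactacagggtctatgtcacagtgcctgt
Tmem140, chr6:34862896-34863195, plus strand: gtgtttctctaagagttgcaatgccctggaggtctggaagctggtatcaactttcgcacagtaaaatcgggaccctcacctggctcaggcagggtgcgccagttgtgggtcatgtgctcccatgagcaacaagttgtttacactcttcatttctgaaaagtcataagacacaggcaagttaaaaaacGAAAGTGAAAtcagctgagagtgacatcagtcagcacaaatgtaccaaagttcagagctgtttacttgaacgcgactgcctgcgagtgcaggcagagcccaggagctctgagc
The Il1a sequence has TGANTCA beginning at -12 from the start. Gbp2 has TGANTCA at -102 and the interferon response element core at -59, and Tmem140 has that core at -63. No match overlapped another. Of 32851 mouse promoter sequences of this length, 7.81% held TGANTCA and 3.44% held the interferon response element core. An NF-kB site form (GGGA, any base, TTTCC), found in 0.411% of promoters, was not matched in these windows. Matches of letters are not evidence of binding.

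Among the miRNA precursors, Mir6381, Mir6244 and Mir1198 were among the 8 largest differences in the higher direction. Their mature RNAs, in RefSeq, are shown with the seed (bases 2 to 8) in capitals, because a table of gene names would report these entries as miRNAs.
mmu-miR-6381: cAGGAUGCuggugacaugagu
mmu-miR-6244: gGGGGCGUggaauuaucgggu
mmu-miR-1198-5p: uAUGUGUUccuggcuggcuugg
mmu-miR-1198-3p: aAGCUAGCcucuaacucauggc
The seeds all differ. None of these precursors had a read on its own strand in any library, so the counted reads came from the strand opposite to the sequences shown, and the mature miRNAs were not measured. Mir6244, within the RNA-binding protein gene Zc3h12c, went from 11 and 8 to 44 and 50 opposite-strand reads, a log2 fold change of 2.95 with no test, since it met the rule in LPS cells only, and Zc3h12c changed by 2.98 ± 0.10. Mir1198, which met the rule in both groups, went from 24 and 26 to 113 and 123 reads, a change of 2.89 ± 0.20 (edgeR adjusted p = 1.55e-06). It had no gene on the other strand within 5 kb. The precursors Mir6340 and Mir466n did not pass the test, at 12 and 18 untreated against 21 and 20 LPS reads, and 24 and 19 against 10 and 15.

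Adcy9 and 4933408J17Rik also met the rule in LPS cells only. Adcy9, an adenylyl cyclase gene with no gene on the other strand within 5 kb, had 8 opposite-strand reads in each untreated library and 38 and 43 after LPS. On its own strand it had 21 and 28 untreated and 18 and 13 LPS reads. 4933408J17Rik, a lincRNA gene that starts head to head with the splicing factor gene Snrpf, went from 14 and 3 to 35 and 45, and its untreated libraries differed from each other by more than its LPS libraries did. Cdcp1 and Selenbp2 also had no gene within 5 kb. Cdcp1 had between 28 and 38 opposite-strand reads in every library and did not pass the test, whereas Selenbp2, which met the rule in untreated cells only, went from 41 and 40 to 12 and 7. Selenbp2 has a near-identical copy, Selenbp1, so its reads are uncertain.

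Of the 8 largest differences in the lower direction, Fam166a and Mast1 met the rule in both groups and 6 met it in untreated cells only. Tmem102, whose span overlaps the gene G630025P09Rik, went from 28 and 24 to 3 and 2 opposite-strand reads. G630025P09Rik had 34 and 26 reads untreated and 3 and 4 after LPS. Abhd11os, a pseudogene that ends in the mitochondrial hydrolase gene Abhd11, went from 22 and 25 to 4 and 2. The others of the 6 were Ovol3 (beside the RNA polymerase II subunit gene Polr2i), with 29 and 31 against 9 and 3 reads, Tnk1 (Plscr3), with 43 and 26 against 10 and 4, Adgre5 (the RNA helicase gene Ddx39), with 60 and 46 against 12 and 10, and 4930455C13Rik (the ribosome rescue gene Hbs1l), with 38 and 39 against 5 and 12. In all 6 the untreated libraries stood above the LPS libraries, as the choice of these members required.

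Fam166a, which ends in the tubulin gene Tubb4b, went from 174 and 126 reads to 24 and 37. It fell by 1.64 ± 0.20 (edgeR adjusted p = 0.000195). Mast1, a kinase gene that ends in the lysosomal nuclease gene Dnase2a, went from 115 and 109 to 29 and 20 and fell by 1.53 ± 0.24 (edgeR adjusted p = 0.000697). Both calls held without each library in turn.

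On their own strand, 260 partner genes were tested, and 72 rose and 79 fell, against 26.6% and 25.3% of all 9992 genes tested. Their median log2 fold change was -0.02. A member's opposite-strand reads and its partner's gene-strand reads come from the same libraries and, where exons overlap, can include the same reads. The 2 changes are therefore set side by side, and what was tested is the difference between them within libraries.

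**Figure D4:**
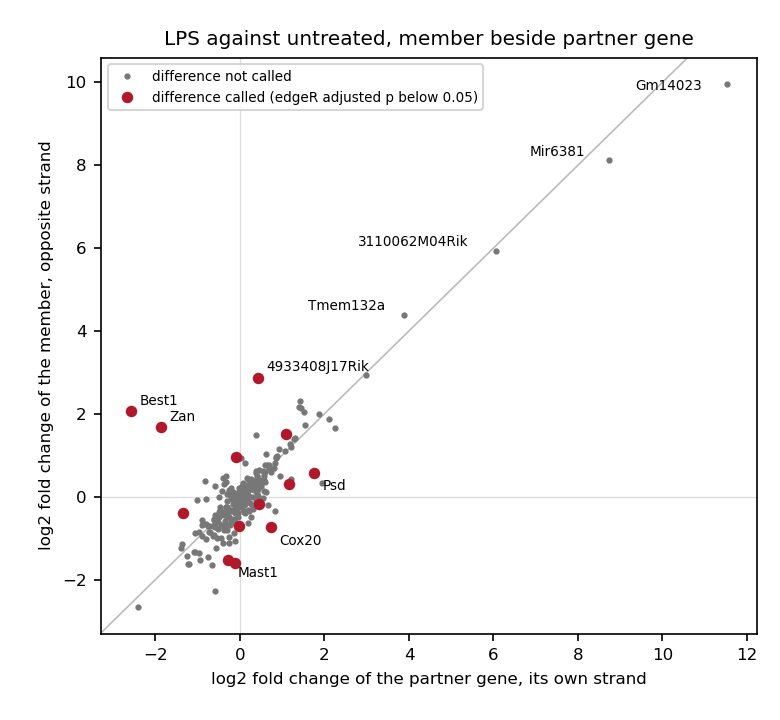
Log2 fold change after LPS of each member's opposite-strand reads (y axis) and of its partner gene's own-strand reads (x axis), with 1 point per pair where both were tested. Red points mark the pairs called in either direction, including members that met the rule in 1 group only, and the grey line is equal change. Best1 and Zan lie in the upper left, with a positive change of the member beside a negative change of the partner.

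That difference was tested for 266 pairs. It passed an edgeR adjusted p of 0.05 with a higher member at 7 and a lower member at 7, against 1.27% and 0.453% of all 3533 pairs tested and 4.4% and 2.45% of the 613 pairs with enough opposite-strand reads for the comparison above. Of the pairs whose member met the rule in both groups, 3 were higher and 6 lower, and those 9 are the tested ones below. Best1, which met the rule in LPS cells only, a chloride channel gene, had 15 and 9 opposite-strand reads untreated and 29 and 35 after LPS, while Rab3il1, which lies beyond it on the other strand without overlap, went from 150 and 133 to 11 and 19. Best1 lies 36 bases beyond the 5' end of Rab3il1, which was taken as the nearest gene, and other neighbours were not compared. Opposite-strand reads of Best1 were fewer than the reads of Rab3il1 in untreated cells and more in LPS cells.

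The 3 tested members that were higher than their partner were AV051173, by 0.43 ± 0.09 over Prdx1 on the log2 scale (0.32 to 0.52 without each library in turn), Rrnad1 and 1700088E04Rik. 4933408J17Rik, Pde6b and Zan met the rule in LPS cells only. Zan, a sperm membrane protein gene, had 6 and 11 reads untreated and 21 and 14 after LPS, while the ephrin receptor gene Ephb4 had 24 and 23 and then 7 and 1. The 6 that were lower were Pdss1, Cand2, Fam69a, Mast1, Cox20 and Psd, and Adgre5 met the rule in untreated cells only. Cand2 and Fam69a end in the ribosomal protein genes Rpl32 and Rpl5, whose many processed copies make their own counts uncertain. Members outside the named set in these 2 groups were named after their values were seen.

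Pdss1, an enzyme gene of coenzyme Q synthesis, had 597 and 743 opposite-strand reads untreated and 574 and 479 after LPS, and the groups overlapped after scaling. Abi1, an actin regulator gene that it ends in, went from 502 and 414 to 575 and 717. The member's change was 0.84 ± 0.13 lower than the partner's on the log2 scale (edgeR adjusted p = 5.02e-08). It was -0.54 without untreated replicate 2 (adjusted p = 0.41) and -0.55 without LPS replicate 2 (adjusted p = 0.00491). Cox20, a gene for an assembly factor of cytochrome oxidase, had fewer opposite-strand reads after LPS (59 and 48 against 20 and 21), beside a rise of 0.73 ± 0.09 for the RNA-binding protein gene Hnrnpu. Each of the 9 calls was lost in at least 1 fit that left out a library. Those of 1700088E04Rik and Psd were lost in every such fit. That of Rrnad1 was lost in all but the fit without untreated replicate 1. That of Mast1 was lost without LPS replicate 2, where its value was -0.75 (adjusted p = 0.784).

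None of the 286 members was in the 7 lists of immune, NF-kB, interferon, ETS-family and related genes (185 genes counted), and 5 had a partner in one. Gm14023 with Il1a and Mir6381 with Gbp2 are given above. Psd, a gene for an exchange factor of ARF6, ends in Nfkb2, an NF-kB subunit gene, and had 28 and 27 opposite-strand reads untreated and 23 and 29 after LPS (log2 fold change 0.57 ± 0.26, edgeR adjusted p = 0.121). Nfkb2 went from 216 and 193 to 397 and 486 and rose by 1.76 ± 0.11 (edgeR adjusted p = 1.08e-18), and the member's change was 1.19 ± 0.36 lower (edgeR adjusted p = 0.049). That adjusted p was between 0.106 and 0.643 in the fits that left out a library. 4930577N17Rik, inside Elf2 with 371 bases of overlapping exon, met the rule in untreated cells only. It had 26 and 16 opposite-strand reads untreated and 8 and 10 after LPS. Mfsd4, which ends in Elk4, a gene of the ETS family like Elf2, did not pass the test, with a log2 fold change of 0.43 ± 0.59. It changed sign, to -0.25, without untreated replicate 2.

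The balance between the 2 strands of an entry is described for 208 members with enough reads. The opposite-strand share was called higher at 5 and lower at 3 (edgeR adjusted p below 0.05), against 0.176% and 0.149% of 7389 entries tested and 1.92% and 1.6% of the 624 that also had enough opposite-strand reads. Nothing is read from these counts, because the rule compared the same reads of both strands. Of the 8, Ddb2 met the rule in both groups.

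In Tmem132a the gene's own strand went from 59 and 71 to 23 and 26 reads while the opposite strand went from 39 and 32 to 456 and 493, so that its own strand had more reads in untreated cells and the opposite strand in LPS cells. 3110062M04Rik had 24 and 31 own-strand reads untreated and 14 and 9 after LPS, beside the opposite-strand reads given above. In Ddb2, a DNA damage recognition gene that ends in the lysosomal phosphatase gene Acp2, the opposite strand went from 65 and 34 to 96 and 111 and the own strand from 42 and 39 to 8 and 19. Adcy9, given above, and Ccdc167 were the others with a higher share. Ccdc167 went from 53 and 35 to 74 and 70 on the opposite strand and from 74 and 73 to 38 and 32 on its own.

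Pilra and Cp went the other way, and both met the rule in untreated cells only. Pilra, an inhibitory receptor gene of myeloid cells, had 94 and 91 opposite-strand reads untreated and 67 and 58 after LPS, and its own strand went from 3 and 8 to 97 and 133. Its opposite strand thus had most of the reads in untreated cells and fewer than its own strand in LPS cells. These reads are not scaled for depth. After scaling, the opposite-strand reads of Pilra overlapped between the groups and did not pass the test. Cp, the gene of the copper-binding ferroxidase ceruloplasmin, had 29 and 28 opposite-strand reads untreated and 10 and 14 after LPS. Its own strand went from 1 read in each untreated library to 27 and 30. Chid1, the remaining one with a lower share, had 146 and 125 opposite-strand reads untreated and 46 and 53 after LPS, beside 79 and 78 and then 74 and 95 on its own strand.

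**Figure D5:**
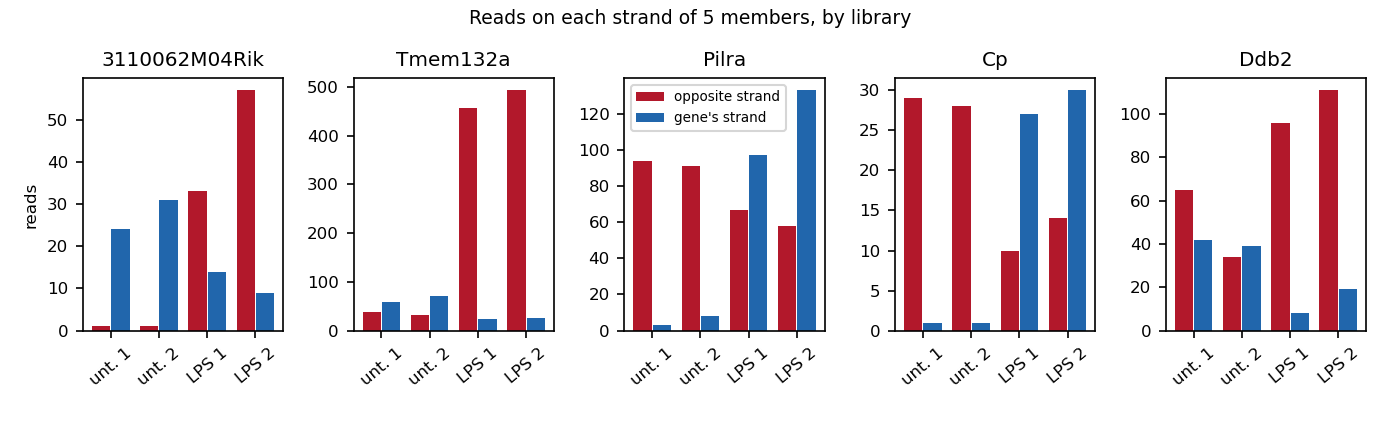
Reads on the opposite strand (red bars) and on the gene's own strand (blue bars) of 5 members in each of the 4 libraries, with reads on the y axis, starting at 0, not scaled for depth. In Tmem132a the red bars reach 456 and 493 after LPS while the blue bars reach at most 71 in any library, and in Pilra and Cp the blue bars exceed the red ones only after LPS.

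Own-strand reads allowed a test of 76 members. Of these, 8 were higher and 19 lower after LPS, against the shares of all genes given above for the partners. The rule used these reads too, so nothing is read from the counts. Tmem55b was called in opposite directions on its 2 strands, but was not among the 8 members called for a changed opposite-strand share. Its own strand had 228 reads in the untreated and 198 in the LPS libraries, not scaled for depth. After scaling it rose by 0.45 ± 0.16 (edgeR adjusted p = 0.0183), beside the fall on the opposite strand given above.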

How the data were processed

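The values deposited by the authors are raw counts, 1 line per gene symbol, with STAR's 3 columns (unstranded, forward strand, reverse strand), per the file layout. Tools given in the submitters' processing notes are Trimmomatic 0.33 and CASAVA 1.8.2 for the reads, STAR 2.5.1 and DESeq2, with hg19 as the build. A human build conflicts with mouse symbols, and the counting annotation was not found, so members get no coordinates. The reverse-strand column, 78.7 to 95.3 times the forward one in total, was taken as the gene's strand. Summary lines stayed out (no feature, 51.8% to 59.1% of uniquely placed reads). Genes with near-identical copies are uncertain.

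Opposite-strand counts of all entries were fitted with edgeR 4.0.16 in R 4.3.3 (quasi-likelihood, robust, two-sided, Benjamini-Hochberg over all entries tested). The library size was the gene-strand total times its TMM factor. The low-count filter used scaled sizes for the opposite strand and unscaled totals for the gene strand. The SE is the log2 fold change over the square root of F. Strand by treatment was tested with library as a block. The test of member against partner, built likewise, and the rule applied to each group alone were added after the data were seen. The former does not model the reads that a pair shares. The fit was tested on simulated data. GENCODE vM21 (GRCm38) gave strands and neighbours: 266 members matched by symbol, 8 by older symbol and 6 by RefSeq span. Members and lists were chosen with earlier results of these data known. Named members are the 8 with most opposite-strand reads, the 8 largest rises and falls with separated groups, those with a partner in a list, the 5 with the smallest strand-by-treatment p and the 2 nearest each side of each threshold. One member of the first group is not reported here. Alternatives were other scalings, filters, thresholds and windows, DESeq2 1.42.0, a fit blocked by replicate number and fits without 1 library.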

Additional observations from a re-analysis of the deposited data

How the results depend on the processing

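With 2 libraries a group, counts of calls moved with single libraries. Leaving out each in turn gave 24 to 43 members higher and 10 to 40 lower, 57 to 72 partner genes higher and 59 to 75 lower, 2 to 6 strand shares higher and 2 to 4 lower, 1 to 5 members higher than their partner and 0 to 6 lower, and 214 to 245 members. Of the 81 members called, 34 were still called without untreated replicate 1, 49 without untreated replicate 2, 71 without LPS replicate 1 and 62 without LPS replicate 2. DESeq2 kept 36 of the 81 and gave 25 higher and 11 lower members and 46 lower partner genes. Scaling by library size alone gave 93 lower members and 37 higher and 145 lower partner genes. It also turned the log2 fold changes of Sla2 (-0.0529), Pdss1 (-0.0439), Srr (-0.158) and Pilra (-0.260). A minimum of 100 opposite-strand reads left 175 members, 25 of them higher. Leaving out each library took log2 fold changes across 0 for Snx22 (-0.116 to 0.0666), Mfsd4 (-0.254 to 1.94), Pilra (-0.109 to 0.289), Prg4 (-0.653 to 0.317) and Vps26b (-0.224 to 0.0851), none of which passed the test in the fit on all 4 libraries. Members that met the rule in both groups, an alternative added after the data were seen, gave 23 higher and 28 lower, 3 higher than their partner, and strand shares of 1 higher and 0 lower. RLE factors, other filters and partner windows of 1 and 20 kb moved no count of calls or of partners by more than 1.5 times, and the causes of the moves were not tested. Deviations of same-numbered libraries correlated at -0.0444 across entries, so the numbers were not taken to pair libraries, and a replicate block gave 43 members higher and 46 lower and 72 and 78 partner genes. With the replicate block Pdss1 passed the test at a log2 fold change of 0.31. Depth limits members with fewer than 100 reads most, 111 of 286.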
